A study of Sus scrofa with 5 samples.

Results

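miR-191 and miR-425 are microRNAs (miRNAs), short RNAs that guide Argonaute proteins to messenger RNAs. The members described here are ssc-miR-191 and both arms of the miR-425 hairpin, ssc-miR-425-5p and ssc-miR-425-3p, taken by name, and they are 3 of the 411 mature pig miRNAs listed in each table. All 3 were above 0 in serum, plasma, semen and bile, and 1 of them, miR-191, in urine. The prefix ssc-, for Sus scrofa, is left out below.

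The small RNA came from exosomes, vesicles that cells shed into body fluids, of Rongchang pigs at postnatal day 180, sampled as serum, plasma, semen, urine and bile, with 1 library per fluid. The labels name no treatment or genetic change in any group, and the number and sex of the animals, and which animal gave which fluid, were not given in the sources used here. With 1 library per fluid no difference below has a replicate check, no p-value is given, and every interval is a 95% interval for counting error only.

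Both hairpins sit in one host gene. In the RefSeq annotation of the pig assembly Sscrofa11.1, MIR425 and MIR191 both lie within DALRD3, and 0 other genes are annotated wholly between them. In mammals they lie in an intron of DALRD3 and are made from a shared primary transcript. Drosha cuts each hairpin from that transcript, Dicer removes the loop, and the strand that Argonaute keeps is the arm that accumulates, while the other is mostly degraded. One transcript can therefore leave unequal amounts of miR-191, miR-425-5p and miR-425-3p. Both miRNAs are known as broadly expressed and as abundant in blood cells, platelets included, and in many epithelia. miR-191 is widely used as a reference miRNA in serum and plasma assays.

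The libraries held 26522 miRNA counts in urine and 473168 to 2284926 in the other fluids. Every listed count was 0 or at least 10, so a value listed at 0 stands for 0 to 9 reads. In plasma the 3 most abundant miRNAs took 83.9% of the counts, against 34.7% to 66.8% elsewhere, which lowers the share of every other plasma miRNA. Marker miRNAs matched the labelled fluids in part. The hepatocyte list held 19.7% of bile counts and at most 1.70% elsewhere, and the kidney list 35.4% of urine counts and at most 5.88% elsewhere. Of these, miR-192 alone held 13.7% of bile counts and miR-30a-5p 22.1% of urine counts. miR-885-3p of the hepatocyte list and miR-196a of the kidney list were at 0 in every fluid. The male germ cell list held 0.0269% of semen counts, nearly all of it miR-34c at 0.0264%. Its listed names were all at 0 in the other fluids. At the depth of the urine library a level this low cannot be told from a listed 0. The red blood cell list was highest in serum, at 10.5%, and no list was highest in plasma.

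miR-191 was the leading product of the locus in every fluid. Its counts were 11491 in semen, 3869 in bile, 3095 in serum, 396 in plasma and 93 in urine. As CPM, counts scaled to a library total of 1000000 miRNA counts, these were 6541 in serum (interval 6313 to 6775), 5029 in semen (4938 to 5122), 3507 in urine (2831 to 4294), 2312 in bile (2240 to 2386) and 343 in plasma (310 to 379). Plasma stood apart at the low end, and the other 4 fluids lay within 2.83 times of each other. No 2 neighbours in this order had overlapping counting intervals, but the order itself moved with the scaling of the libraries, as given below. By rank, which no scaling changes, miR-191 was 15th of 174 miRNAs above 0 in semen, 25th of 179 in bile, 27th of 180 in serum, 28th of 84 in urine and 53rd of 161 in plasma. It held 42.7 times the median count of the miRNAs above 0 in semen, 17.8 times in bile, 16.0 times in serum, 2.93 times in plasma and 2.38 times in urine. Semen thus ranked miR-191 highest among its own miRNAs, while serum gave it the largest share.

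miR-425-5p, the arm that usually carries the function of miR-425, was the second product in serum, semen and bile. Its counts were 949 in semen, 459 in serum, 331 in bile and 80 in plasma, and it was listed at 0 in urine. The CPM were 970 in serum (883 to 1063), 415 in semen (389 to 443), 198 in bile (177 to 220) and 69.3 in plasma (55.0 to 86.3). These 4 levels did not overlap. The listed 0 of urine stands for a level under 377 CPM, the value of 10 counts there, so urine cannot be placed against semen, bile or plasma. miR-425-5p ranked 55th in semen, 66th in serum, 79th in bile and 92nd in plasma.

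miR-425-3p, usually the passenger arm, had 201 counts in serum, 193 in semen, 144 in plasma and 112 in bile, and was also listed at 0 in urine. Its CPM were 425 in serum (368 to 488) and 125 in plasma (105 to 147), then 84.5 in semen (73.0 to 97.3) and 66.9 in bile (55.1 to 80.5). The intervals of semen and bile overlapped. Plasma, the fluid with the least miR-191 and miR-425-5p, held the second highest level of miR-425-3p. Plasma was also the fluid in which this arm ranked best, at 76th, against 90th in serum, 92nd in semen and 109th in bile.

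**Figure D1:**
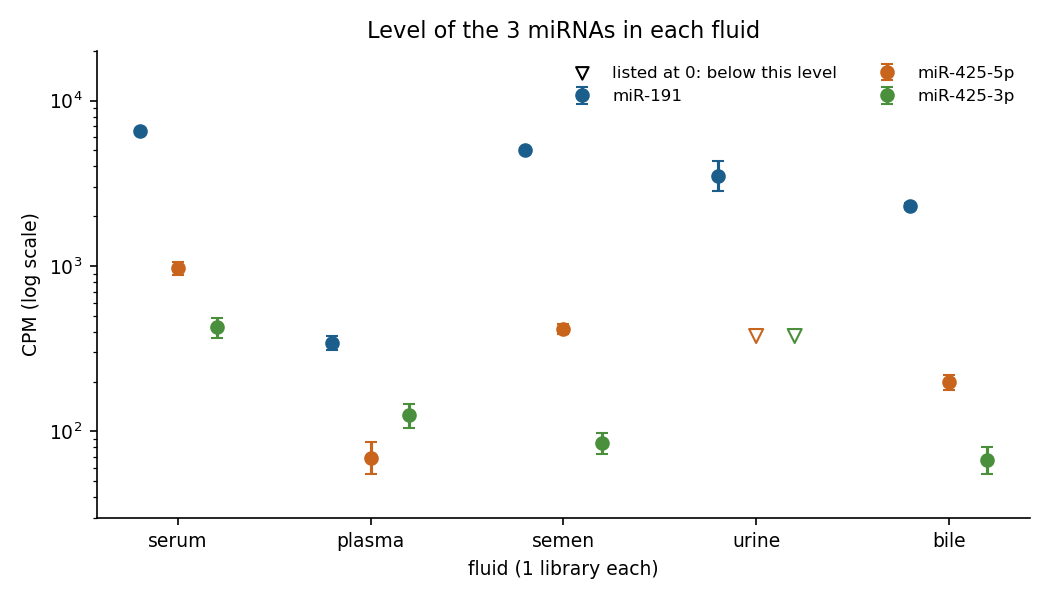
CPM (log axis) of miR-191, miR-425-5p and miR-425-3p in each fluid, 1 library each, where bars are exact 95% counting intervals and open triangles mark the level of 10 counts, below which a value listed at 0 lies. miR-191 runs from 343 CPM in plasma to 6541 in serum, and plasma is the fluid in which the 3p arm lies above the 5p arm.

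The next question was how far the fluids differ for each member, set against all miRNAs with at least 100 counts in either fluid of a pair and with 2-fold as the limit. All 3 members were at least 2-fold higher in serum than in plasma, as were 73.1% of all miRNAs tested. miR-191 was 19.1 times higher (17.2 to 21.2), miR-425-5p 14.0 times (11.0 to 18.0) and miR-425-3p 3.40 times (2.73 to 4.25). The median miRNA was 6.77 times higher in serum, so miR-191 and miR-425-5p lay on the serum side of that median and miR-425-3p on the plasma side. Among the 119 miRNAs, 34 had a larger serum to plasma ratio than miR-191, 41 a larger one than miR-425-5p and 76 a larger one than miR-425-3p.

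Against bile, all 3 were again at least 2-fold higher in serum, where 53.6% of miRNAs were. The values were 2.83 times for miR-191 (2.70 to 2.97), 4.90 times for miR-425-5p (4.25 to 5.67) and 6.35 times for miR-425-3p (5.01 to 8.07). In this pair the order of the members was the opposite of that against plasma. Against semen, both miR-425 arms passed 2-fold towards serum, beside 51.1% of all miRNAs, with 2.34 times for the 5p arm (2.08 to 2.61) and 5.03 times for the 3p arm (4.11 to 6.16). miR-425-5p was itself the median miRNA of this pair, with 70 miRNAs above it and 70 below. miR-191 was 1.30 times higher in serum than in semen (1.25 to 1.35), on the semen side of that median of 2.34 times.

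Plasma was then compared with semen and bile. miR-191 was 14.7 times higher in semen than in plasma (13.3 to 16.2) and miR-425-5p 5.99 times (4.76 to 7.62), in a pair where 55.3% of miRNAs were at least 2-fold higher in semen. miR-425-3p went the other way, 1.48 times higher in plasma (1.18 to 1.84), short of 2-fold. Bile exceeded plasma 6.74 times for miR-191 (6.07 to 7.49) and 2.85 times for miR-425-5p (2.23 to 3.69), beside 60.3% of all miRNAs, and plasma exceeded bile 1.86 times for miR-425-3p (1.45 to 2.41). Against a median miRNA at 4.59 times higher in bile, the log2 ratio of plasma to bile for miR-425-3p was 0.90, with 40 of 141 miRNAs further towards plasma. The 3p arm was thus displaced towards plasma relative to both its partner arm and miR-191 in each of these pairs.

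Semen was then compared with bile. miR-191 was 2.17 times (2.10 to 2.26) and miR-425-5p 2.10 times (1.85 to 2.39) higher in semen, where 33.3% of miRNAs passed 2-fold, and miR-425-3p was 1.26 times higher (0.995 to 1.61). In urine only miR-191 could be measured. It was 10.2 times its plasma level (8.06 to 12.8), in a pair where 41.8% of miRNAs were at least 2-fold higher in urine. Serum exceeded urine 1.87 times (1.52 to 2.32), semen exceeded urine 1.43 times (1.17 to 1.78) and urine exceeded bile 1.52 times (1.22 to 1.86). For miR-425-5p serum was at least 2.57 times urine (lower end of the counting interval 1.39), beside 38.1% of miRNAs at least 2-fold higher in serum.

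**Figure D2:**
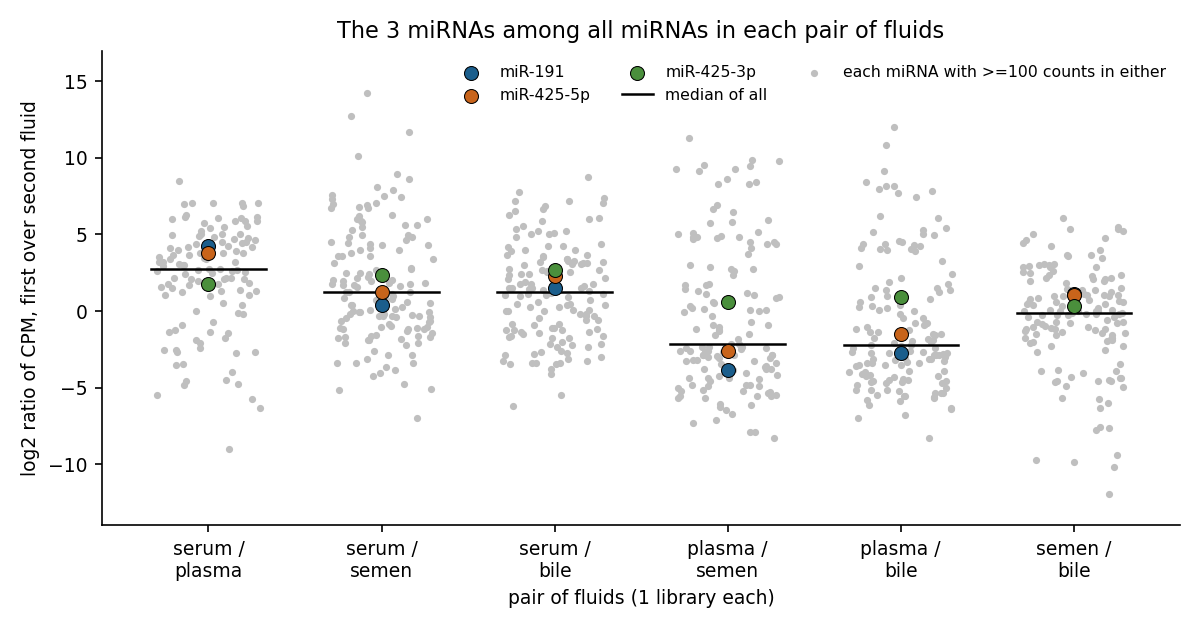
Log2 ratio of CPM between the fluids of each pair (first over second, 1 library each) for every miRNA with at least 100 counts in either (grey points), their median (black line) and the 3 members (coloured points), with values listed at 0 taken as 10 counts. miR-425-3p sits above miR-191 and miR-425-5p in the plasma to semen and plasma to bile ratios, at 0.56 and 0.90, while the medians are -2.17 and -2.20.

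These levels depend on how libraries of such different make-up are scaled. The scalings compared were 5: the miRNA total, edgeR's TMM, DESeq2's size factors, the total without each library's most abundant miRNA, and the authors' RPM, reads scaled to 1000000 of a larger library total. miR-191 kept its direction under all 5 scalings in 6 of 10 pairs of fluids, miR-425-5p in 4 of 6 and miR-425-3p in 5 of 6. These tallies take any difference as a direction, and some lay within counting error. Examples are miR-191 in bile over plasma at 1.02 times (0.916 to 1.13, DESeq2 size factors) and miR-425-5p in semen over plasma at 1.06 times (0.843 to 1.35, TMM). For miR-191, serum and semen both stayed above plasma, but serum over plasma came to 1.93 times (TMM) and 1.87 times (DESeq2 size factors). Semen, not serum, was highest for miR-191 under the 4 other scalings. For miR-425-5p serum was highest in 4 of 5 scalings and semen on the authors' RPM. For miR-425-3p plasma was above semen and bile in all 5 scalings, and above serum in 3 of them, at 2.90 times (TMM), 2.99 times (DESeq2 size factors) and 1.05 times on the authors' RPM. The last (0.844 to 1.31) was level within counting error. So was plasma over semen on the authors' RPM, at 1.12 times (0.895 to 1.39). Without the most abundant miRNA it was 1.19 times (0.952 to 1.48), also level. Ratios of counts within a library, given next, carry no such dependence.

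The ratio of miR-191 to miR-425-5p, the main products of the 2 hairpins, compares miRNAs that share a transcript. Each small RNA read spans a whole mature miRNA, so no length correction applies, but adaptor ligation can favour one sequence over another, and the ratio is read here only between fluids. There were 12.1 counts of miR-191 per count of miR-425-5p in semen (11.3 to 13.0), 11.7 in bile (10.4 to 13.1), 6.74 in serum (6.11 to 7.45) and 4.95 in plasma (3.88 to 6.38). The blood fluids were low, and semen and bile high. Semen and bile differed 1.04 times (0.907 to 1.18), within counting error. Serum exceeded plasma 1.36 times (1.04 to 1.77). Semen exceeded serum 1.80 times (1.59 to 2.02) and plasma 2.45 times (1.88 to 3.15), and bile exceeded serum 1.73 times (1.49 to 2.02) and plasma 2.36 times (1.79 to 3.09).

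Urine allowed a bound. With miR-425-5p at no more than 10 counts, its 93 counts of miR-191 give a ratio of at least 9.30, apart from counting error. At the ratios of the other fluids, 93 counts of miR-191 would go with 18.8 counts of miR-425-5p as in plasma, 13.8 as in serum, 7.96 as in bile and 7.68 as in semen. The last 2 fall below the smallest count that the tables list. Whether urine differs from bile or semen in this ratio was not detectable at this depth, and the 13.8 of serum lies too near the limit of 10 to tell.

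With the miR-425-3p arm in its place the ratio spread far more. It was 59.5 in semen (51.6 to 69.0), 34.5 in bile (28.6 to 42.1), 15.4 in serum (13.3 to 17.8) and 2.75 in plasma (2.27 to 3.35). Semen exceeded plasma 21.7 times (16.9 to 27.6) and serum 3.87 times (3.14 to 4.75). The fluids kept the order of the 5p ratio, with semen and bile now 1.72 times apart (1.35 to 2.19). Of all reads from the 3 members, miR-191 took 91.0% in semen, 89.7% in bile, 82.4% in serum and 63.9% in plasma. The 5p arm took 7.51%, 7.68%, 12.2% and 12.9% in the same order, and the 3p arm 1.53%, 2.60%, 5.35% and 23.2%.

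The arms of miR-425 come from 1 hairpin, and their balance differed between fluids. The 3p arm made up 64.3% of miR-425 reads in plasma (57.6 to 70.6), from 144 reads against 80 of the 5p arm. It made up 30.5% in serum (27.0 to 34.1), 25.3% in bile (21.3 to 29.6) and 16.9% in semen (14.8 to 19.2). The leading arm of the hairpin was therefore 3p in the plasma library and 5p in serum, semen and bile. As a ratio of 3p to 5p reads, plasma was 8.85 times semen (6.39 to 12.3), 5.32 times bile (3.70 to 7.64) and 4.11 times serum (2.95 to 5.74). Among the other fluids serum was 2.15 times semen (1.70 to 2.72) and bile 1.66 times semen (1.26 to 2.18). Serum and bile differed 1.29 times (0.979 to 1.71), within counting error. Without plasma the spread over fluids came to 2.15 times.

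**Figure D3:**
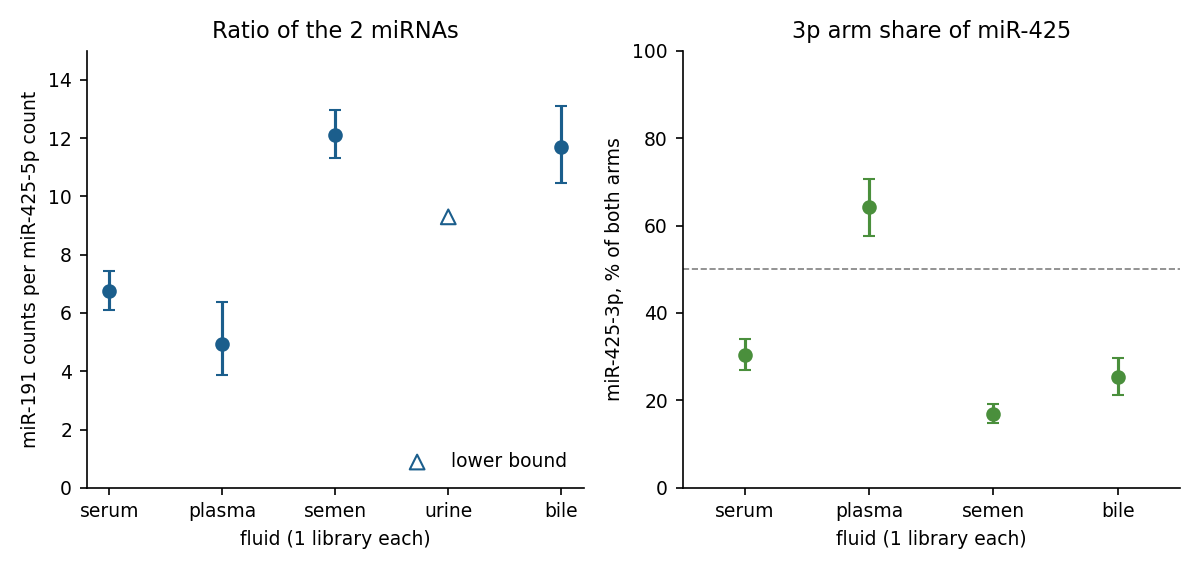
Left, counts of miR-191 per count of miR-425-5p in each fluid, and right, the 3p arm as a percent of miR-425 reads, 1 library per fluid, with exact 95% counting intervals and a dashed line at 50%. The ratio is lowest in plasma (4.95) and highest in semen (12.1), with the urine triangle a lower bound, and the 3p share passes 50% in plasma alone among these 4 fluids.

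Other hairpins show how common such shifts are in these libraries. Both arms were above 0 in serum, plasma, semen and bile for 10 of the 78 hairpins with both arms listed. Over these 10, the 3p to 5p ratio spread over the 4 fluids by a median of 8.25 times, beside 8.85 times for miR-425, the 5th largest. The spread of miR-425 was thus near the middle. The widest were miR-148a, a hairpin abundant in liver, at 749 times, and miR-423 at 56.4 times, and the narrowest were miR-30a at 1.83 times and miR-22 at 2.62 times. The leading arm changed between fluids in 2 of the 10, miR-425 and miR-361, the latter named after its values were seen. Relative to its mean over serum, semen and bile, the usual leading arm lost ground in plasma in 5 of the 10, and miR-425 had the second largest such shift of the 10 after miR-148a. Some hairpins outside the 10 shifted further, over the fluids in which both their arms were above 0. In log2 these were miR-671 (6.32), miR-339 (5.73), miR-139 (5.14), miR-30b (4.97) and miR-30c (2.97), against 2.53 for miR-425. These names were chosen after their values were seen, and each has an arm listed at 0 in some of the 4 fluids. Some of the shifts rest on few reads, as for miR-671 in serum and miR-30c in plasma. No counting interval was computed for them. In the 17 hairpins with both arms above 0 in serum and plasma, the 3p share was higher in plasma in 8. The leading arm also differed between these fluids in hairpins outside the 10, named after their values were seen. The 3p share went from 5.54% in serum to 72.7% in plasma for miR-139, 34.0% to 57.6% for miR-142 and 11.3% to 87.2% for miR-339. For miR-671 it went from 52.4% in serum to 1.36% in plasma, but on the few serum reads no leading arm is resolved there. Without plasma miR-425 ranked 8th of the 10 by spread.

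**Figure D4:**
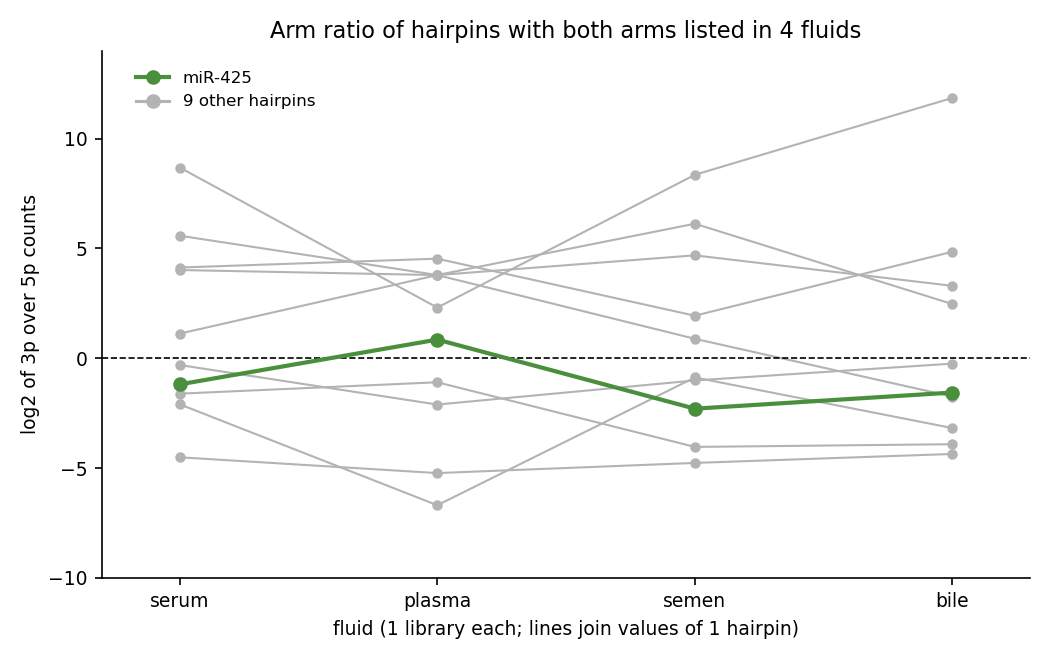
Log2 of 3p over 5p counts in serum, plasma, semen and bile for the 10 hairpins with both arms above 0 in all 4, 1 library per fluid, where lines only join the values of a hairpin and 0 marks equal arms. miR-425 (green) lies at 0.85 in plasma and at -1.19, -2.30 and -1.56 in serum, semen and bile.

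Co-transcribed miRNAs elsewhere in the genome gave a scale for the miR-191 to miR-425-5p ratio. Of 38 other pairs known to share a transcript, 32 had both names listed and 15 had both above 0 in serum, plasma, semen and bile. Largest over smallest ratio in those fluids was 2.45 times for miR-191 and miR-425-5p, the smallest of the 16 pairs, and the median of the other 15 was 12.9 times. Next came miR-17-5p and miR-20a, members of the miR-17-92 cluster, at 2.56 times, inside the counting interval of 1.88 to 3.15, so the order of the first pairs is not resolved. The widest were miR-100 and let-7a at 248 times and miR-221-3p and miR-222 at 86.3 times. Some pairs, wide and narrow, rest on low counts. The smallest was 10 for miR-221-3p and miR-222, and 16 for miR-181a and miR-181b, against 80 for miR-191 and miR-425-5p. The pairs are not independent either, since miR-23a and miR-92a, for example, recur among them. Many of these miRNAs, let-7a among them, also come from further gene copies or have close relatives whose reads may be shared. The position depended on the fluids and the arm used. Without serum it was 4th narrowest, with both miR-425 arms summed the spread was 5.69 times with 7 of the 15 pairs narrower, and with the 3p arm 21.7 times with 11 narrower.

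**Figure D5:**
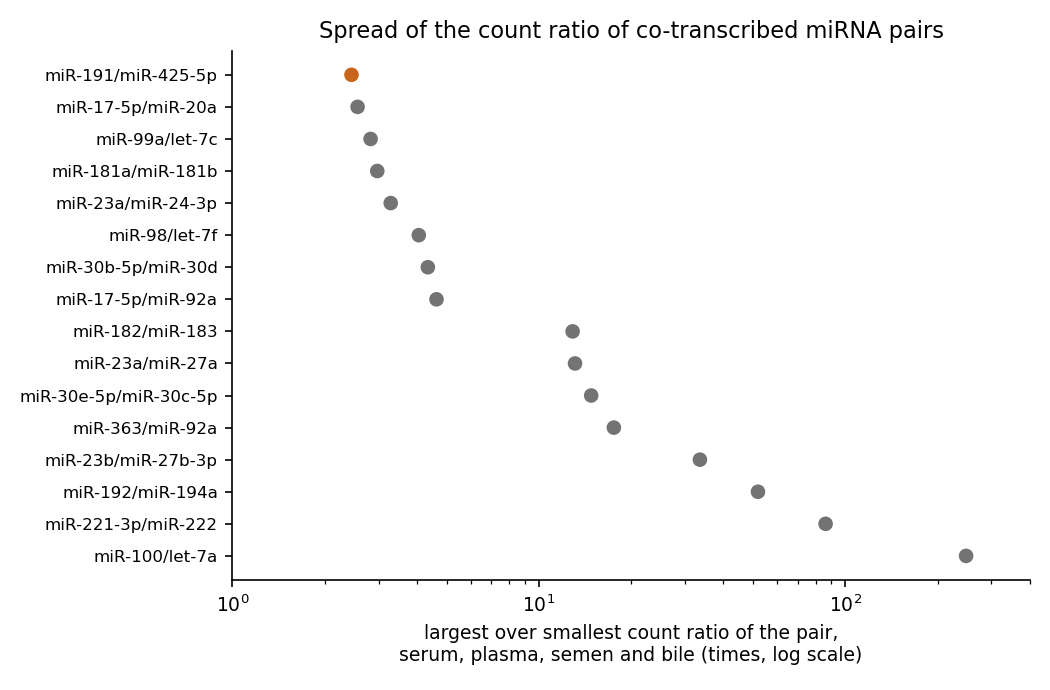
Largest over smallest count ratio across serum, plasma, semen and bile (log axis, 1 library per fluid) for miR-191 and miR-425-5p (orange) and 15 other co-transcribed pairs (grey). The values run from 2.45 times to 248 times.

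The miRNAs whose pattern over fluids was most like that of each member were found by the standard deviation, over fluids, of the log2 ratio of counts, a measure that is free of scaling and is given as a description. Over the 5 fluids and 66 other miRNAs above 0 in all of them, miR-99a was closest to miR-191 (SD 0.44), followed by let-7c (0.55), which is transcribed with miR-99a, miR-148b-3p (0.60), miR-29a (0.64) and let-7d-5p (0.67). miR-99a stayed within 2.31 times of a constant multiple of miR-191, at 49466 CPM in semen, 48892 in serum, 40947 in urine, 25352 in bile and 5930 in plasma. All of these share the low plasma value. Of the 5, 2 were again among the closest 5 without urine, 2 without plasma and 2 with at least 100 counts in every fluid, miR-99a each time.

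For miR-425-5p, over serum, plasma, semen and bile and 103 other miRNAs, miR-148b-3p was closest (SD 0.16), followed by miR-505 (0.31), miR-7 (0.48), miR-345-3p (0.57) and miR-99a (0.61). Of these 5, 3 were again among the closest 5 with at least 100 counts in every fluid used and 2 without plasma, where miR-7134-5p, named after its values were seen, was closest (SD 0.08) and miR-148b-3p second. The ratio of miR-148b-3p to miR-425-5p varied 1.26 times over the 4 fluids. miR-191 was 6th in this list (0.63), and miR-425-5p was 8th in the list of miR-191 over the same fluids. The 3p arm stood further off, 26th of 103 from its own 5p arm (SD 1.35) and 59th from miR-191 (1.94). The pattern of miR-425-5p over these 4 fluids was therefore nearer to miR-191 than to the other arm of its hairpin. Most of that gap came with the plasma library. Over serum, semen and bile alone, miR-191 was 8th of 127 from miR-425-5p (SD 0.47) and the 3p arm 11th (0.56).

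Blood cells carry both miRNAs, so marker miRNAs of blood cells are given beside these levels. The 5 red blood cell markers summed to 10.5% of counts in serum, 1.11% in urine, 0.600% in plasma, 0.457% in bile and 0.0114% in semen. The erythroid miR-451 led them in serum (8.48%), plasma (0.414%) and bile (0.412%), miR-363 in urine and miR-16 in semen. Of the 9 leukocyte marker names, 7 were above 0 in serum, plasma and bile, 3 in semen and 1 in urine, and they summed to 2.17% in serum, 0.369% in plasma, 0.163% in bile, 0.0566% in urine and 0.0127% in semen. They were led by miR-146a-5p in each fluid but semen, where miR-146b led. The platelet list ran from 0.632% in plasma to 8.78% in semen, but miR-21, which most cells express, made up most of it. Serum was highest in red cell and leukocyte markers and in the platelet names other than miR-21. It was also highest in both miR-425 arms on CPM, and the part of blood cells in that was not tested. These shares move with the scaling, as do the levels. miR-425-3p was highest in plasma, not serum, with TMM and DESeq2 size factors. On the authors' RPM it was level in plasma and serum within counting error, and miR-425-5p was highest in semen. In semen, where miR-191 stood at 5029 CPM, 3 of the 5 red cell names and 3 of the 9 leukocyte names were above 0. Those at 0 were miR-451 and miR-144, and miR-142-5p, miR-142-3p, miR-150, miR-146a-3p and both miR-155 arms. The platelet list was highest in semen, at 8.78% of counts, but miR-21 alone held 8.69% of counts there. That sum therefore says little about the other platelet names. Those were highest in serum, where the list held 4.84% of counts and miR-21 2.63%, and lowest in semen. The names miR-223 and miR-197, fixed for the platelet list, were not among the listed miRNAs. The part of blood cells in the semen level was not tested. A lower number of vesicles of one origin and less miRNA per vesicle cannot be told apart in such bulk libraries.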

How the data were processed

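Small RNA of exosomes from 5 pig body fluids was sequenced, with 1 library per fluid, grouped by the tissue label. The authors deposited, per fluid, read counts for 411 miRNA names and a normalized column. Per the submitters' processing notes, bcl2fastq 2.17 and genome build Sscrofa10.2 were used. The aligner, the annotation and the treatment of multiply matching reads were not given in the sources used here. Counts divided by the deposited normalized values gave 1 constant per library, as RPM would, against totals of 7207788 to 10801967 reads.

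CPM used the sum of listed miRNA counts. Shares carry exact Clopper-Pearson 95% intervals, ratios exact binomial ones, and ratios of ratios exact conditional odds ratio ones (scipy 1.17.1). PCR reads without molecular identifiers are not independent molecules, so intervals cover counting error only. A listed 0 was taken as 10 counts where a bound was needed. Alternatives were edgeR 4.0.16 TMM, DESeq2 1.42.0 size factors, other totals and limits, and libraries left out. Only the intervals of CPM ratios between libraries were tested, on simulated independent counts. Those counts follow the model that the intervals assume, so PCR duplicates and variation between libraries were not covered.

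The members, lists and rules were chosen with earlier results of these data known. Named by rule were the 3 members, the 5 miRNAs closest to miR-191 and to miR-425-5p, the 2 narrowest and 2 widest pairs and hairpins, and leading markers. Other names were chosen after their values were seen.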

Additional observations from a re-analysis of the deposited data

Results flagged for a closer look

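The arm balance of miR-425 pointed opposite ways in different fluids. The 3p arm took 64.3% of miR-425 reads in plasma, above the 5p arm, and was the minor arm in serum, semen and bile. Each side rests on 1 library per fluid, and the difference was not tested beyond its counting interval. Beside it, the plasma library had 83.9% of its counts in 3 miRNAs and the smallest library total, 7207788 reads, and the part of either was not tested.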

How the results depend on the processing

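Ratios of counts within a library are the same on any scaling, and the 3p arm share was the same on the authors' RPM in the 4 fluids measured. Levels between fluids moved. The highest over the lowest fluid other than urine, 19.1 times for miR-191, came to 2.59 with TMM and 2.68 with DESeq2 size factors. For miR-425-5p, at 14.0 times, it was 2.57 with TMM, 3.19 with DESeq2 size factors, 10.01 without the most abundant miRNA and 7.92 on the authors' RPM. For miR-425-3p, at 6.35 times, it was 9.67, 12.4 and 1.88 with TMM, DESeq2 size factors and the authors' RPM. Pairs of fluids 2-fold apart were 6 for miR-191, 7 for miR-425-5p and 3 for miR-425-3p, and 3, 4 and 6 with either TMM or DESeq2 size factors. At a limit of 4-fold, 3 pairs passed for miR-425-5p. Differences past 2-fold that turned, as the ratio of the first fluid to the second, were miR-191 in serum over bile (0.80 on the authors' RPM) and urine over plasma (0.91 with TMM, 0.16 on the authors' RPM), miR-425-5p in serum over semen (0.49 on the authors' RPM) and bile over plasma (0.55 with TMM, 0.43 with DESeq2 size factors), and miR-425-3p in serum over plasma (0.34 with TMM, 0.33 with DESeq2 size factors, 0.95 on the authors' RPM). Of these values, the 0.95 for miR-425-3p and the 0.91 for miR-191 lay within counting error of no difference. The cause of the turns was not tested.

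With both miR-425 arms summed, miR-191 to miR-425 was 4.69 in serum, 1.77 in plasma, 10.1 in semen and 8.73 in bile, in the same order as with the 5p arm. Its spread over fluids was 5.69 times with both arms and 21.7 times with the 3p arm, 2 alternatives chosen after seeing the data. The spread of the 3p to 5p ratio, 8.85 times, was 2.15 times without plasma. Spreads over all 5 fluids were not run, because both miR-425 arms are listed at 0 in urine, where depth is the limit. No paired analysis was possible because each fluid has 1 library.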

Other observations

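On the authors' RPM, miR-425-3p was nearly level in the blood fluids and semen, at 19.0 in serum, 20.0 in plasma and 17.9 in semen, with 10.6 in bile, while miR-191 ran from 54.9 in plasma to 1064 in semen. The highest over the lowest of these 4 fluids was 1.88 times for miR-425-3p, 7.92 times for miR-425-5p and 19.4 times for miR-191. The pattern closest to miR-425-3p over the same fluids was that of miR-1468 (SD of the log2 ratio 0.43), followed by miR-1343 (0.44), both chosen after their values were seen. Over serum, semen and bile alone, without plasma, miR-425-5p and miR-425-3p were closer to each other (SD 0.56) than over the 4 fluids (1.35).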
